A study of Rattus norvegicus with 2 samples.

Results

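The 10 genes described here encode proteins of the junctions between endothelial cells. They were chosen by name, as the count-table entries called Cdh5, Pecam1, Cldn5, Esam, Jam2, Tjp1, Ocln, Gja4, Gja5 or Gja1 once the species tag of the name is removed. All 10 have an entry among the 25906 mouse genes of the tables, and 8 have one among the 23373 rat genes, where no entry is named Cldn5 or Ocln. Their levels were followed across capillary, arterial, venous and lymphatic endothelium.

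Skeletal muscle was collected from the whole body of 1 Sprague Dawley (SD) rat and 1 rat-mouse chimera, digested with collagenase, sorted for live cells with a Calcein dye and profiled by droplet single-cell RNA sequencing. The chimera is an SD rat that had been injected as a morula with mouse induced pluripotent stem cells carrying the Dmd mdx allele, edited to restore the dystrophin reading frame, and the Pax7-nGFP reporter. Its mouse cells thus come from an edited cell line and develop in a rat, and the SD rat holds no mouse cells. Ages, sexes and the clone injected for the sequenced animal are not given in the sources used here. Each group is 1 animal and 1 library, so no difference has a replicate check and no test was run. Intervals are exact 95% intervals on counts and cover counting error only.

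The cells formed 3 populations. SD rat cells came from the control library, chimera rat cells were chimera barcodes with at most 20% of their unique molecular identifiers (UMIs, each 1 captured transcript) on mouse genes, and chimera mouse cells were those with at least 80%. The chimera library held 13299 barcodes and 118872850 UMIs, and the SD rat library 10117 barcodes and 70957559 UMIs. After filtering, 8816 SD rat, 8263 chimera rat and 1856 chimera mouse cells remained, and 1685 mixed chimera barcodes were left out. The libraries shared 43 barcodes, and leaving out the 6 cells of the endothelial classes that carry one moved no result.

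Endothelial cells were clustered without the 10 genes and without a wider list of 46 junction genes, so neither set entered the clustering. Ptprb, a gene of the wider list, was among the pan-endothelial markers used to pick out endothelial clusters. The rule that named the classes was set after the levels of the 10 genes had been seen. Capillary cells numbered 573 in the SD rat, 504 among chimera rat cells and 632 among chimera mouse cells. This class held the endothelial clusters left after the others were named or removed, if capillary markers were raised over non-endothelial cells. The arterial classes held 58, 26 and 197 cells in the same order, the venous classes 58, 67 and 107, and the lymphatic classes 107 and 78, with no lymphatic class among mouse cells. Lymphatic markers summed to 36697 and 52823 CPM (a gene's UMIs scaled to a fixed total of UMIs of the cell's own species) in the rat lymphatic classes, against 34.1 to 165 in the other rat classes. Venous markers summed to between 9623 and 12871 in the venous classes, against at most 1310 in the other classes. The arterial names were the weakest. Arterial markers were highest in the arterial class of each population, at 8260, 6439 and 4759 CPM, but in the mouse arterial class capillary markers summed to 24889 CPM, more than the 21765 of the mouse capillary class. In the rat arterial classes they summed to 5912 and 2620 CPM, against 14499 and 16988 in the capillary classes, so the arterial classes of the rats and the mouse are not alike.

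The classes left much endothelium out. Of 1677 SD rat endothelial cells, 881 were unnamed or set aside, by rules on markers of other cells, capillary markers and depth. Among chimera rat cells this was 84 of 797, and among chimera mouse cells 149 of 1154. Cycling clusters of 38 chimera rat and 69 mouse cells were kept apart. RNA of muscle fibers was present in every class: the summed myocyte markers ran from 2649 to 13011 CPM in the rat classes and from 489 to 822 in the mouse classes. Median UMIs per cell ran from 3097 to 10636 between classes. The part of these differences in the results was not tested.

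Endothelial cells are held together by adherens, tight and gap junctions. At adherens junctions VE-cadherin (Cdh5) binds its like on the neighboring cell, tight junctions seal the cleft between cells, and gap junctions are channels of connexins through which ions and small molecules pass. The vessels of one bed differ in these contacts: capillaries of muscle form a continuous barrier, venules open for leukocytes and plasma, arteries pass signals along their length through connexins, and initial lymphatics take up fluid between loosely joined cells.

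Of the 10 genes, 7 matched a rat promoter in the RefSeq table of the GRCr8 build, which is not the build the reads were mapped to. The 250 bases upstream of the start are shown for the 3 connexins. Among the endothelial classes, Gja4 and Gja5 were highest in arterial cells, and in the rats Gja1 was not. Capitals mark the KLF core, CACCC or its reverse complement GGGTG, and the SOX core, ATTGT or ACAAT. The sequences are 5′ to 3′ on the gene's strand, at chr5:144920325-144920574 (minus strand) for Gja4, chr2:187290977-187291226 (plus strand) for Gja5 and chr20:36302314-36302563 (plus strand) for Gja1.

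Gja4: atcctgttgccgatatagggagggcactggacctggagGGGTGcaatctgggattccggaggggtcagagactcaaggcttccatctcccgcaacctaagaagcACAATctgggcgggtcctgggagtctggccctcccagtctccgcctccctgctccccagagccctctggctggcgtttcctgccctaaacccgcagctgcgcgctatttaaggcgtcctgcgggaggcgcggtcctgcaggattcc

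Gja5: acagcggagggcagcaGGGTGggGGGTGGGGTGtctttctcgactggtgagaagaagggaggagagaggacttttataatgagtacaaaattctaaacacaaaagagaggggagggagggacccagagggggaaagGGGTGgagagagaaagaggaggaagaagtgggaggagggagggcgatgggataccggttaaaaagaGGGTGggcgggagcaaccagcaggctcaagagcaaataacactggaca

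Gja1: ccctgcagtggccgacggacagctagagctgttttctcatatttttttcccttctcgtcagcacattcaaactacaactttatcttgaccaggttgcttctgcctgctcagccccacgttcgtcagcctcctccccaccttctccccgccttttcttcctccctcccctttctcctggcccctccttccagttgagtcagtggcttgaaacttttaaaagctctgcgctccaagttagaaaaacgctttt

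The Gja5 window held 5 KLF cores, the Gja4 window 1 KLF core and 1 SOX core, and the Gja1 window neither. Of the 33469 rat promoter windows in the table, 49.2% held a KLF core and 30% a SOX core, so a match to either is common. The ETS core, GGAA or TTCC, which is not capitalized, occurred 4, 2 and 3 times in the 3 windows and at least once in 93.2% of all windows. The RBPJ core, TGGGAA or TTCCCA, occurred in none of the 3 and in 22.1% of all. These are letter matches in short windows, not binding sites.

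**Figure D1:**
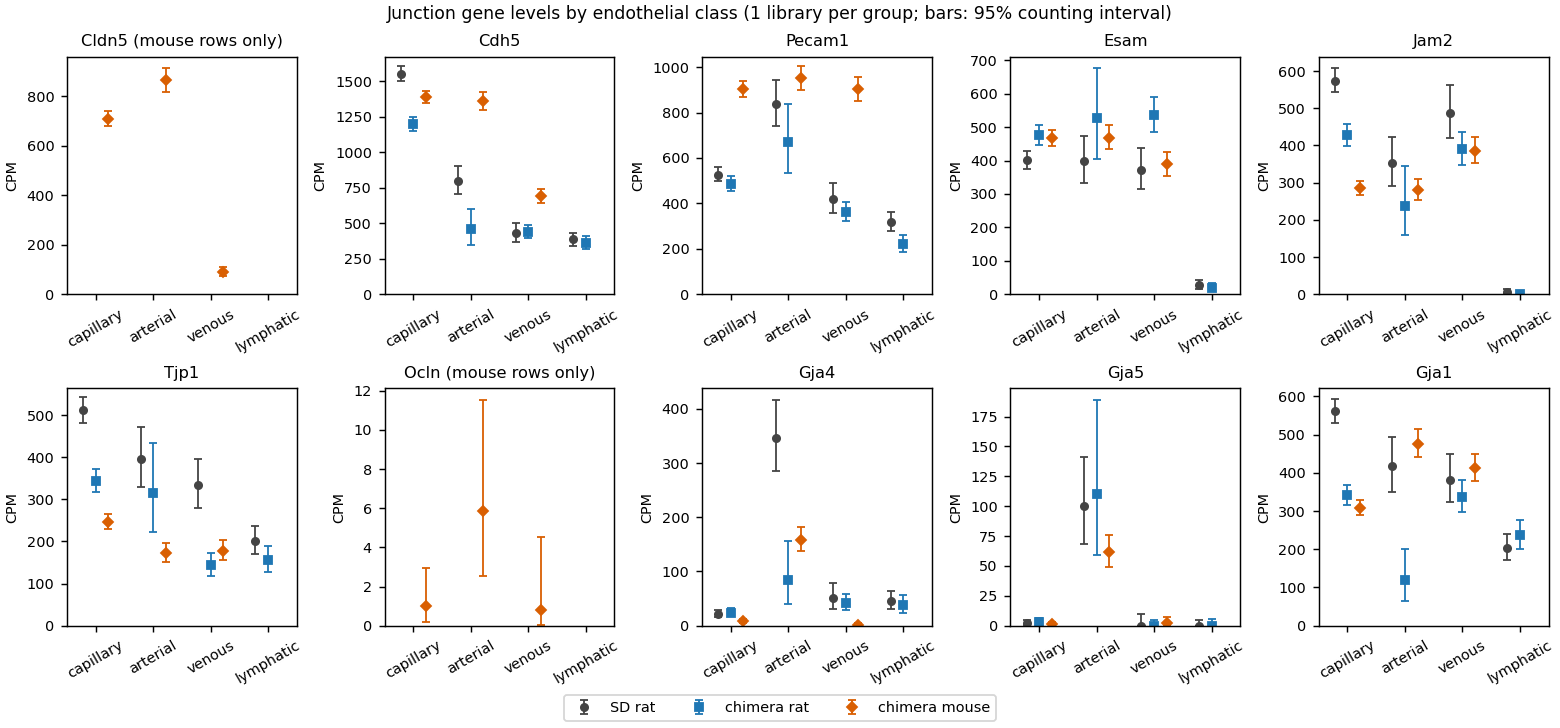
Level of each junction gene in CPM (vertical axis, own scale for each gene) by endothelial class, with 1 point for each population and bars for the exact 95% Poisson interval, which covers counting error only. Gja5 stood near 0 outside the arterial classes, and Esam and Jam2 lay at the bottom of their axes in the lymphatic classes, where chimera mouse cells have no point.

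At the adherens junction, Cdh5 was the member whose level set capillaries apart from veins and lymphatics in both rats. VE-cadherin is the homophilic adhesion molecule that anchors the endothelial actin cytoskeleton at cell contacts. In the SD rat its level was 1551 CPM in capillary, 798 in arterial, 428 in venous and 386 in lymphatic cells. In chimera rat cells the levels were 1196, 459, 441 and 360 CPM in the same order. In both rats capillary cells were highest, while the counting intervals of venous and lymphatic cells overlapped, and in the chimera rat that of arterial cells met both.

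Chimera mouse cells kept the capillary and arterial classes together, at 1390 and 1360 CPM of Cdh5 with overlapping intervals, and the venous class at 690 CPM. The arterial ratio to capillary cells was thus near 1 in the mouse (log2 ratio -0.03, interval -0.11 to 0.05), and below it in SD rat (-0.96, interval -1.15 to -0.77) and chimera rat cells (-1.38, interval -1.80 to -0.99). With predicted doublets kept, the chimera rat arterial class grew to 136 cells and its log2 ratio went to -0.03. The mouse arterial class was also the one rich in capillary markers, so these ratios set unlike classes side by side. Venous cells were 3.62-fold lower than capillary cells in the SD rat, 2.71-fold lower in chimera rat and 2.01-fold lower in chimera mouse cells. The mouse value lies at the 2-fold limit and crossed it in 8 of 13 alternative settings. After each cell was thinned to 1000 UMIs, Cdh5 was seen in 75.9% of SD rat capillary cells and 27.8% of venous cells, against 4.30% of T or NK cells, which do not make it. Before thinning the shares were 91.4%, 62.1% and 8.42%.

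Pecam1 encodes the homophilic receptor PECAM-1 (CD31), which lies at the contacts of all endothelium and on some leukocytes. Its levels were 527, 839, 421 and 318 CPM in capillary, arterial, venous and lymphatic cells of the SD rat and 487, 672, 363 and 221 CPM in those of the chimera rat. Arterial cells were highest in both rats, and the order of the 4 classes was the same, with the venous and lymphatic intervals meeting in the SD rat. In chimera mouse cells the 3 classes stood at 904, 950 and 903 CPM, with overlapping intervals. Pecam1 was past 2-fold only once, in lymphatic against capillary cells of the chimera rat (2.20-fold lower), and the value for the SD rat was 1.66-fold lower.

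At the tight junction, Cldn5 could be followed in mouse cells alone. Claudin-5 is the main sealing claudin of endothelium. Its mouse level was 709 CPM in capillary, 865 in arterial and 89.9 in venous cells. Venous cells were 7.89-fold lower than capillary cells, and only 13 of 107 venous cells held a Cldn5 UMI (12.1%), against 405 of 632 capillary cells (64.1%) and 159 of 197 arterial cells (80.7%). Thinned to 1000 UMIs, the shares were 3.77%, 36.8% and 46.2%, and 1.11% in mouse T or NK cells. The venous cells were the deeper ones, with a median of 10636 UMIs against 3519 in capillary cells.

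The low venous Cldn5 was lost under 1 alternative. With at least 90% of UMIs required on mouse genes, the mouse cells were clustered and named anew, the venous class went from 107 to 182 cells and the capillary class from 632 to 363, and the log2 ratio moved from -2.98 to -0.09. The limit and the new classes cannot be told apart. The highest level of Cldn5 was outside the classes, at 1548 CPM in the 149 mouse endothelial cells left unnamed, whose leading genes were the globins Hbb-bs, Hba-a1 and Hba-a2.

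Esam and Jam2 encode adhesion molecules of the immunoglobulin superfamily at endothelial tight junctions, ESAM and JAM-B. Both were present across blood vessels. In lymphatic cells Esam was low and Jam2 nearly absent. The SD rat levels of Esam were 401, 399 and 372 CPM in capillary, arterial and venous cells and 27.3 in lymphatic cells. In the chimera rat they were 476, 527 and 537 CPM and 18.7 in lymphatic cells. Lymphatic cells were therefore 14.7-fold and 25.4-fold below capillary cells, and the 3 blood classes were within 1.13-fold of capillary cells in both rats. The lymphatic levels of Esam were above those of rat T or NK cells, at 4.37 CPM in the SD rat and 1.59 in the chimera rat.

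Jam2 showed the deeper gap. Its SD rat levels were 574, 352 and 487 CPM in capillary, arterial and venous cells and 5.45 in lymphatic cells, where 4 UMIs were counted in 3 of 107 cells. In the chimera rat they were 428, 238 and 390 CPM and 1.56 in lymphatic cells, from 1 UMI in 78 cells. The log2 ratio of lymphatic to capillary cells was -6.72 (interval -8.60 to -5.36) in the SD rat and -8.10 (interval -13.4 to -5.62) in the chimera rat. Both lymphatic levels were below those of rat T or NK cells, at 26.2 and 24.4 CPM. Among mouse cells, venous cells had the higher Jam2, at 386 CPM against 286 in capillary and 281 in arterial cells, while Esam stood at 389, 467 and 469 CPM.

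Tjp1 encodes ZO-1, the scaffold that ties claudins, JAMs and connexins to actin, and it is used by many epithelia and other cells as well. SD rat levels were 511 CPM in capillary, 396 in arterial, 334 in venous and 200 in lymphatic cells. Chimera rat levels were 344, 315, 143 and 156 CPM, and the chimera mouse levels 246, 173 and 178. Capillary cells were highest in each population, but the arterial interval met the venous one in the SD rat and the capillary one in the chimera rat. Lymphatic cells were past 2-fold lower in both rats (2.55-fold and 2.21-fold), although the chimera rat ratio missed 2-fold in 4 of 13 alternatives (log2 -0.80 to -0.95), and venous cells were so in the chimera rat alone (2.40-fold, against 1.53-fold in the SD rat and 1.38-fold in mouse cells).

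Ocln encodes occludin, a tight junction protein prominent at the blood-brain barrier and in epithelia. It was close to undetected in mouse muscle endothelium, with 3 UMIs in 632 capillary cells (1.00 CPM), 8 in 197 arterial cells (5.86 CPM) and 1 in 107 venous cells (0.81 CPM). No Ocln UMI was left in any of these classes after thinning to 1000 UMIs per cell. Its levels were too low for the filter on counts, and its interval for arterial against capillary cells ran from 0.49 to 5.09 on the log2 scale.

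At the gap junction, 2 connexins marked the arteries. Gja4 (connexin 37) and Gja5 (connexin 40) are the connexins known from arterial endothelium, and Gja1 (connexin 43) is used by endothelium and by many other cells. In SD rat cells Gja4 was at 346 CPM in arterial cells, 51.0 in venous, 45.0 in lymphatic and 21.1 in capillary cells. In chimera mouse cells it was at 159 CPM in arterial, 8.04 in capillary and 0.81 in venous cells. Arterial cells exceeded capillary cells by 16.4-fold in the SD rat and 19.8-fold in mouse cells, and 28 of 58 SD rat and 79 of 197 mouse arterial cells held a Gja4 UMI (48.3% and 40.1%).

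Chimera rat arterial cells had less Gja4, at 85.1 CPM from 10 UMIs in 6 of 26 cells, against 24.3 in capillary, 41.3 in venous and 37.4 in lymphatic cells. The arterial ratio was 3.51-fold (log2 interval 0.66 to 2.81), and its interval did not meet those of the other populations. The SD rat venous level of Gja4 rested on 1 cell, which held 16 of the 20 UMIs. With the Gja4 UMIs of the leading cell left out in both classes, the log2 ratio of venous to capillary cells went from 1.28 to -0.88. The counts were then below the filter.

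Gja5 was the most restricted member. It stood at 99.8 CPM in arterial cells of the SD rat (32 UMIs in 10 cells), 111 in those of the chimera rat (13 UMIs in 4 cells, 8 of them in 1 cell) and 61.5 in mouse arterial cells (84 UMIs in 48 cells). Capillary levels were 1.83, 3.10 and 1.34 CPM. No Gja5 UMI was counted in venous or lymphatic cells of either rat, which at a floor of 3 counts per class allows levels of up to 3.87 to 7.65 CPM, and mouse venous cells held 3 UMIs in 1 cell. Mouse arterial cells were 45.9-fold above capillary cells (log2 5.52, interval 4.11 to 7.43), and the same ratio was 54.5 in the SD rat and 35.7 in the chimera rat, where the summed counts were under the filter.

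The arterial connexins were seen together in part of the arterial cells. Of 58 SD rat arterial cells, 28 held Gja4, 10 held Gja5 and 7 held both. Of 197 mouse arterial cells, 79 held Gja4, 48 held Gja5 and 27 held both, and 69 of the 100 with either also held Gja1. A cell without a UMI is not a cell without the transcript at this depth. Within the mouse arterial class, a cluster of 100 cells had 282 CPM of Gja4 and 94.5 of Gja5, and a cluster of 97 cells 58.5 and 34.6 CPM. The second cluster had the lower arterial markers, at 3389 CPM against 6438, and the globins Hba-a1 and Hbb-bs led its genes.

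Gja1 ran differently in the 3 populations. Its SD rat levels were 562 CPM in capillary, 418 in arterial, 382 in venous and 204 in lymphatic cells. In the chimera rat they were 342, 119, 338 and 237 CPM, and in chimera mouse cells 308, 477 and 413 CPM. Arterial cells were thus above capillary cells in the mouse (1.55-fold) and below them in both rats (1.34-fold lower in the SD rat and 2.87-fold lower in the chimera rat, the latter from 14 UMIs). The intervals of SD rat arterial and venous cells overlapped, as did those of chimera rat capillary and venous cells.

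**Figure D2:**
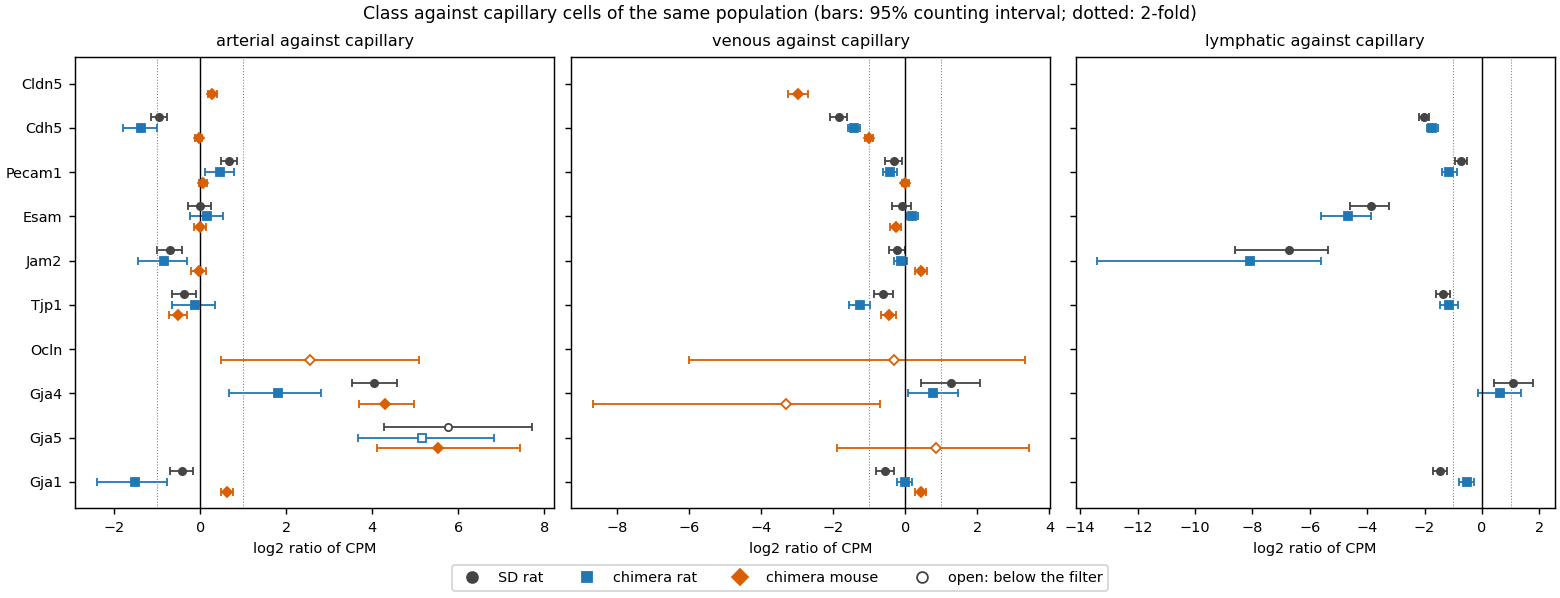
Log2 ratio of CPM of arterial, venous and lymphatic cells to capillary cells of the same population (horizontal axis), with 1 point per gene and population, bars for the 95% counting interval, dotted lines at 2-fold and open points for genes under the filter. Gja4 and Gja5 lay to the right in the arterial panel, Cldn5 and Cdh5 to the left in the venous panel, and Esam and Jam2 far to the left in the lymphatic panel.

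Counted over the list, the members were set against all genes by 1 rule: a ratio of at least 2-fold, with at least 20 CPM in 1 class and 50 UMIs over both. In arterial against capillary cells of the SD rat, 7 of 8 members passed the filter and 1 was past 2-fold (Gja4, higher), where 17% of all genes tested were (4.81% higher and 12.2% lower). In the chimera rat 7 passed and 3 were past 2-fold (Gja4 higher, Cdh5 and Gja1 lower), against a background of 28.9% (9.93% higher and 18.9% lower). In mouse cells 9 of 10 passed and 2 were past 2-fold (Gja4 and Gja5, both higher), against 8.43% (3.81% higher and 4.62% lower). The median log2 ratio of the members that passed was -0.37, -0.13 and 0.07, and that of all genes -0.10, -0.13 and -0.08. Most of the members were thus not apart between arteries and capillaries by this rule.

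In venous against capillary cells, 7 members passed in each population. Past 2-fold were Cdh5 (lower) and Gja4 (higher) in the SD rat, Cdh5 and Tjp1 (lower) in the chimera rat, and Cdh5 and Cldn5 (lower) in mouse cells. The share of all genes past 2-fold was 20.4%, 20.5% and 23.1%, so 2 of 7 is near the background in each. By direction, 5.89%, 6.57% and 8.69% of genes were higher and 14.5%, 13.9% and 14.4% lower. Median log2 ratios were -0.32, -0.14 and -0.26, against -0.15, -0.20 and -0.25 for all genes. Cdh5 was the gene past 2-fold in all 3.

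Lymphatic cells differed from capillary cells in most members. In the SD rat 6 of the 7 that passed were past 2-fold, with Cdh5, Esam, Jam2, Tjp1 and Gja1 lower and Gja4 higher (45.0 against 21.1 CPM, 2.14-fold). In the chimera rat 5 were, with Cdh5, Pecam1, Esam, Jam2 and Tjp1 lower. The background was 25.8% in both rats, with 9.54% of genes higher and 16.3% lower in the SD rat and 8.32% and 17.5% in the chimera rat. The median log2 ratio of the members was -1.46 and -1.14, and that of all genes -0.01 and -0.13. The direction for Gja4 in the SD rat turned with a coarser subclustering, to -0.38.

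The wider list of junction genes was read in the same way, and 44 of its 46 genes have a rat entry and 45 a mouse entry. In lymphatic against capillary cells, 28 passed in the SD rat, with 5 higher and 11 lower, and 26 in the chimera rat, with 2 higher and 10 lower. The share of all genes past 2-fold was 25.8% in both rats. The median log2 ratio of the wider list was -0.74 and -0.82, and that of all genes -0.01 and -0.13. The higher genes were led by Cldn11, which encodes the claudin-11 known from myelin and testis, at 132 CPM against 0.46 (1 UMI) in SD rat capillary cells (289-fold, log2 interval 5.66 to 13.5). In the chimera rat 48 Cldn11 UMIs were counted in lymphatic and 0 in capillary cells, at least 48.4-fold higher against a floor of 3 counts over the capillary class, with counts just under the filter. Pard3, the polarity protein PAR-3 that organizes tight junctions, was at 170 against 1.83 CPM in the SD rat and 225 against 3.61 in the chimera rat. Lymphatic cells thus held a claudin and a polarity gene at levels well over those of capillary cells, beside the low Esam and Jam2.

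The lower genes of the wider list in lymphatic cells included Jam3 (JAM-C), at 15 against 92.9 CPM in the SD rat and 7.80 against 99.1 in the chimera rat. Mcam, the adhesion molecule CD146, was at 1.36 against 47.6 CPM in the SD rat, and at 0 against 38.2 in the chimera rat, at least 8.16-fold lower. Arhgef15 was 7.61-fold lower in the SD rat, and Magi3 and Cdh13 (T-cadherin) were 3.95-fold and 3.78-fold lower in the chimera rat.

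In venous cells 25 genes of the wider list passed in each population, with 6 lower in the SD rat, 6 lower and 1 higher in the chimera rat and 4 lower in mouse cells, and median log2 ratios of -0.56, -0.66 and -0.33, against -0.15, -0.20 and -0.25 for all genes. The share of all genes past 2-fold was 20.4%, 20.5% and 23.1%, so these counts were near it or, in mouse cells, under it. Jup and Mcam were lower in all 3 populations. Jup, the plakoglobin that links cadherins to the cytoskeleton, was at 33.1 against 164 CPM in the SD rat, 15.5 against 142 in the chimera rat and 31.6 against 263 in mouse cells. It stood 4.94-fold, 9.20-fold and 8.33-fold below capillary cells. The wider list also holds the catenin genes Ctnna1, Ctnnb1 and Ctnnd1, and none of them was among the 4 lower genes in mouse cells. Jam3 was 4.05-fold lower in the SD rat and 17.0-fold lower in mouse cells, Afdn (afadin) 3.09-fold and 3.49-fold lower in chimera rat and mouse cells, and Magi3 2.32-fold and 2.51-fold lower in SD rat and chimera rat cells. Mcam was 6.22-fold lower in the SD rat (3 UMIs) and 2.02-fold lower in mouse cells, Pvr 2.12-fold lower in the SD rat, and Magi1 2.44-fold lower in the chimera rat. The gene that was higher was Gjc1 (connexin 45), at 72.3 against 29.4 CPM in the chimera rat. The mural markers, for pericytes and smooth muscle, were also highest in the venous class among the 4 classes of each population, at 997, 1675 and 473 CPM, and their part in the Gjc1 value was not tested.

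In arterial cells 26, 25 and 25 genes of the wider list passed. Of these, 2 were higher and 7 lower in the SD rat, 1 higher and 3 lower in the chimera rat and 2 lower in mouse cells, with median log2 ratios of -0.14, 0.15 and -0.10. The share of all genes past 2-fold was 17%, 28.9% and 8.43%. The SD rat count was above it, and the counts of the chimera rat and the mouse did not exceed it. Cgnl1 (paracingulin), a tight junction adaptor, was at 74.8 against 15.1 CPM in the SD rat, and Heg1, a receptor of the cerebral cavernous malformation pathway, at 536 against 216 CPM in the chimera rat. Lower were Panx1, Mcam, Arhgef15 and Jam3 in the SD rat (2.71-fold to 4.40-fold), Magi1 in the chimera rat (2.10-fold), and Jam3 and Nectin2 in mouse cells (2.40-fold and 2.09-fold). The SD rat values rest on 3, 4, 7 and 11 arterial UMIs in that order. Nectin2 (3.79-fold lower, log2 interval -4.98 to -0.04) and Arhgef15 (2.67-fold lower, interval -4.48 to 0.48) rest on 2 UMIs each in chimera rat arterial cells. No gene of the wider list was past 2-fold in the arterial cells of all 3 populations.

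The comparison of the 2 libraries asked whether rat endothelium of the chimera, which shares its tissue with mouse cells, holds the same junction transcripts as that of the SD rat. In capillary cells it did within 2-fold. All 7 members that passed lay between 1.65-fold lower (Gja1, 342 against 562 CPM) and 1.19-fold higher (Esam, 476 against 401 CPM), and none was past 2-fold, against 4.08% of all genes. Cdh5 was at 1196 against 1551 CPM (log2 ratio -0.38, interval -0.45 to -0.30), Jam2 at 428 against 574 and Tjp1 at 344 against 511. The counting intervals of Pecam1 and Gja4 held 1. These intervals say nothing of the difference between animals, since there is 1 in each group.

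In the smaller classes 3 ratios passed 2-fold. Arterial cells of the chimera rat were lower in Gja4 (85.1 against 346 CPM, log2 ratio -2.02, interval -3.12 to -1.09) and in Gja1 (119 against 418 CPM, -1.81, interval -2.72 to -1.01), while Gja5 stood at 111 against 99.8 CPM. That is 2 of the 7 that passed, against 14.7% of all genes, and it rests on 26 chimera rat cells. Of the 13 Gja5 UMIs there, 8 were in 1 cell. Other markers differed between these classes too: mural markers summed to 119 CPM in the chimera rat and 649 in the SD rat, capillary markers to 2620 and 5912, cycling markers to 281 and 24.9, and T or NK markers to 187 and 6.24. Their part in the ratios was not tested. Venous cells were lower in Tjp1 (143 against 334 CPM, -1.22, interval -1.60 to -0.85), 1 of 7 against 10.4%. Among lymphatic cells 5 members passed and none was past 2-fold, against 6.15%. With predicted doublets kept, the chimera rat arterial class grew to 136 cells and its Gja1 ratio to the SD rat went to -0.64, while Gja4 stayed past 2-fold in all 12 alternatives that gave a value.

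The libraries were mapped to different references, and a rat read of the chimera can be counted on a mouse gene. With the mouse entry of each pair added back, the same 3 ratios were past 2-fold, at -2.25, -1.94 and -1.30, where 14.4% of genes in arterial cells and 9.77% in venous cells were. No member was past 2-fold in capillary or lymphatic cells (background 4.18% and 5.83%). Of the wider list, 25, 15, 18 and 25 genes passed in capillary, arterial, venous and lymphatic cells on the rat entries alone, and 0 were past 2-fold. With mouse entries added, Vcl (vinculin) was, at 2.04-fold lower in arterial cells. The adding moved the median of all genes in capillary cells from -0.02 to -0.14, and the members there lay between -0.92 and 0.04.

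**Figure D3:**
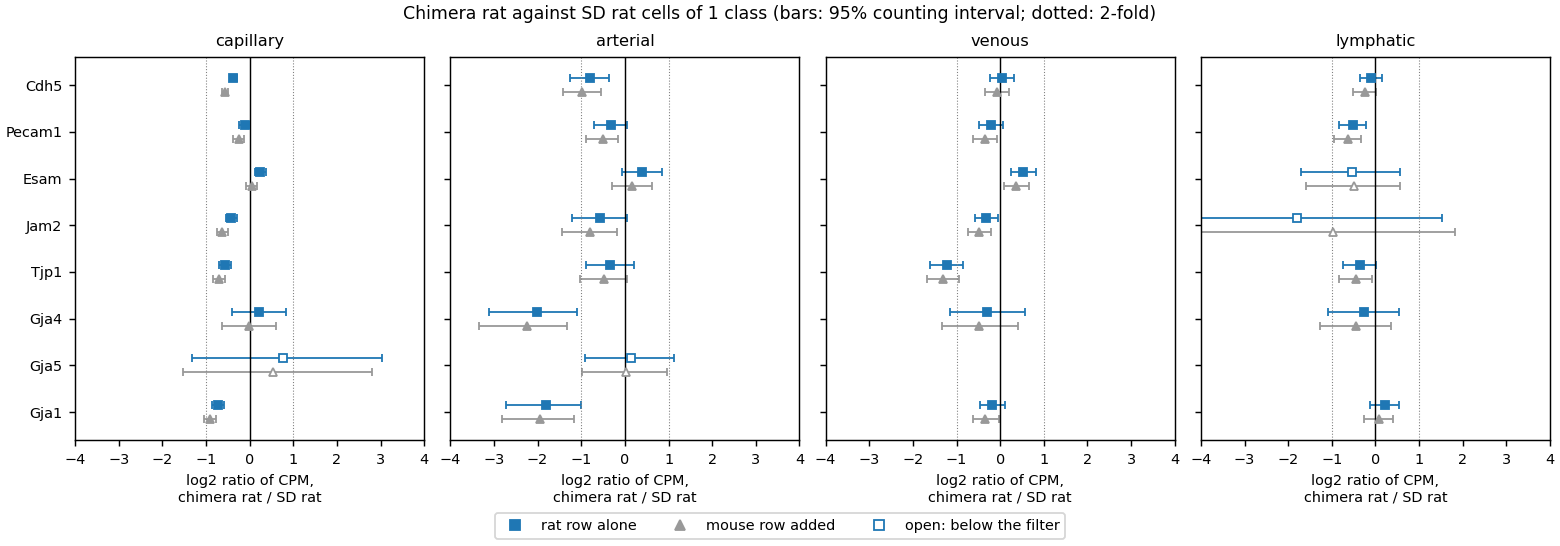
Log2 ratio of CPM of chimera rat to SD rat cells of the same class (horizontal axis), with the rat entry alone (squares) and with the mouse entry added (triangles), bars for the 95% counting interval, dotted lines at 2-fold and open symbols for genes under the filter. Gja4 and Gja1 in arterial cells and Tjp1 in venous cells lay past the left dotted line on both scales.

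The share of each member pair counted on the mouse gene was small in chimera rat endothelium. Over all genes more was on mouse entries, with a median of 14.6% of UMIs per capillary cell. It was 13.6% in arterial, 13.0% in venous and 13.0% in lymphatic cells. Over the 4 classes the share of the pair was 2.06% for Cdh5, 4.55% for Pecam1, 1.12% for Esam, 1.19% for Jam2, 6.06% for Tjp1 and 1.54% for Gja1. For Gja4 it was 0 of 113 UMIs (upper end of the exact interval 3.21%), and for Gja5 1 of 20. Over 4850 gene pairs with at least 50 UMIs in capillary cells the median share was 4.52%, with quartiles of 1.89% and 9.33%. In those cells Cdh5, Esam, Jam2 and Gja1 lay under it, and Pecam1, at 5.41%, and Tjp1, at 6.19%, over it. Gja4 and Gja5, with 47 and 6 UMIs, were under that count. Their shares of 0 had upper interval ends of 7.55% and 45.9%. In fibro-adipogenic progenitors (FAPs), connective tissue cells that do not make VE-cadherin, the shares were 55.0% for Cdh5, 47.1% for Pecam1 and 39.4% for Esam, on rat levels of 2.20 to 5.16 CPM. Jam2, Tjp1 and Gja1, which FAPs do hold, had shares of 1.80%, 9.16% and 0.82% there.

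In mouse endothelium the share on rat genes was 0.25% to 1.32% for 6 of the pairs and 0 of 91 UMIs for Gja5. Gja4 stood apart, with 30 of 272 UMIs on the rat gene (11.03%, interval 7.57% to 15.4%). Rat mural cells held 422 CPM of Gja4, and their part in this share was not tested.

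**Figure D4:**
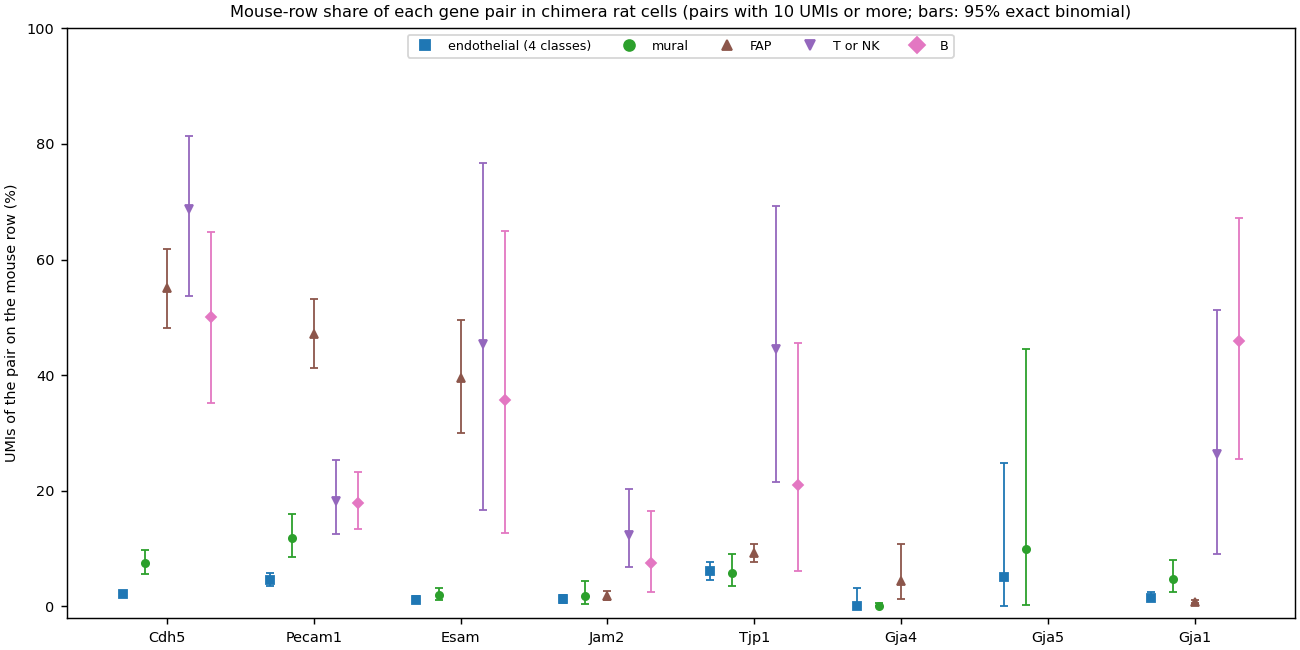
Share of each pair's UMIs counted on the mouse gene (vertical axis, percent) in chimera rat cells of 5 kinds, for pairs with at least 10 UMIs, with bars for the exact 95% binomial interval. Endothelial cells lay at 6.06% or lower for every gene shown, while FAP, T or NK and B cells reached higher shares for Cdh5, Pecam1 and Esam. Shares were also high for Tjp1 in T or NK cells (44.4%) and for Gja1 in B cells (45.8%).

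The members also varied within the capillary class, among clusters made without them. In mouse cells Cldn5 ran from 295 CPM in a cluster of 48 cells to 1039 in a cluster of 72, Gja1 from 92.0 to 602 and Tjp1 from 87.6 to 502. Among the SD rat clusters Gja1 ran from 320 to 686 CPM and Tjp1 from 434 to 961, the highest Tjp1 in the cluster with the most myocyte RNA (27536 CPM of its markers against 10821 and 13196). Among the clusters named capillary Cdh5 was the steadier one, from 1510 to 1616 CPM in the SD rat, 1062 to 1450 in the chimera rat and 1112 to 1602 in mouse cells. The lower levels of rat cells that were set aside or unnamed are not in these ranges. In the SD rat and the mouse, capillary averages of Gja1 and Tjp1, and of mouse Cldn5, therefore stand for clusters that differ by more than 2-fold.

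**Figure D5:**
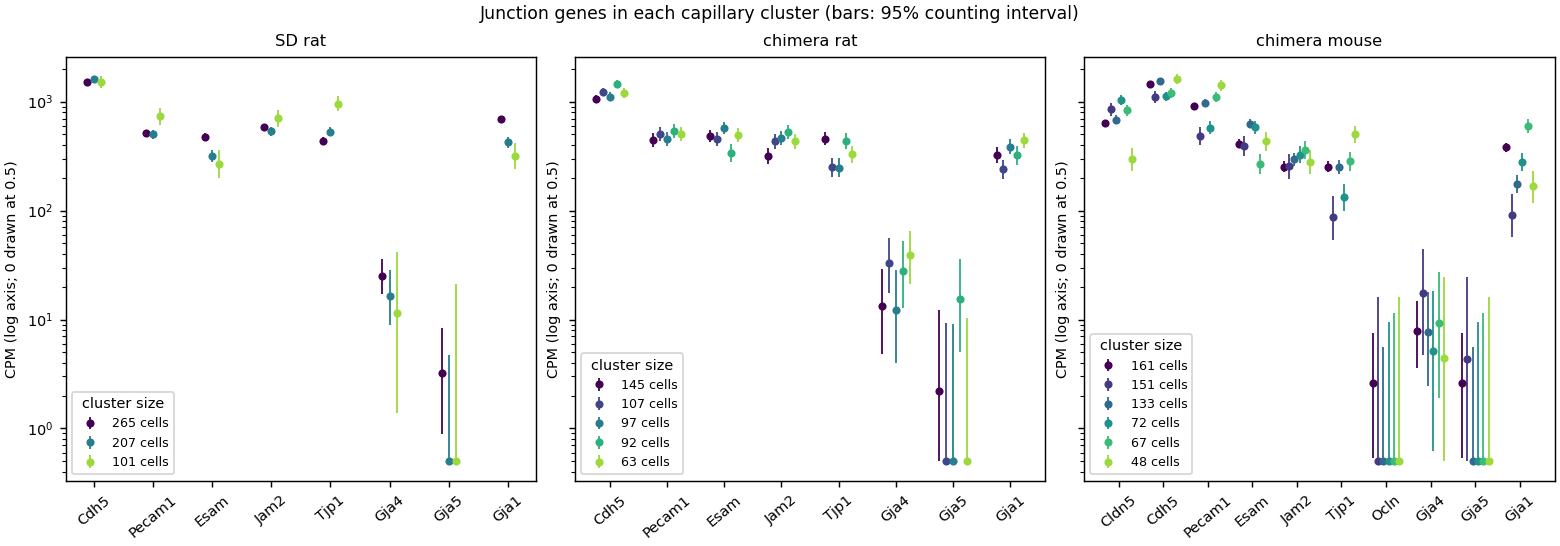
Level of each junction gene in CPM (vertical log axis, 0 drawn at 0.5) in each capillary cluster of the 3 populations, with bars for the 95% counting interval. Cdh5 stayed within 1062 to 1616 CPM in all capillary clusters, while mouse Gja1 ran from 92.0 to 602 CPM.

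Outside endothelium, several members had a second home. Gja4 was at 282 CPM in mural cells of the SD rat and 422 in those of the chimera rat, and Esam at 259 and 323 CPM. Both are known from vessel walls, but the same mural classes held 391 and 249 CPM of Cdh5 and 2432 and 1591 CPM of pan-endothelial markers, and the part of endothelial RNA in them was not tested. Gja1 was at 388, 332 and 287 CPM in FAPs of the SD rat, the chimera rat and the mouse, and Tjp1 at 242 CPM in Schwann or glial cells of the SD rat. Gja5 was at no more than 3.78 CPM in the classes outside endothelium that held a UMI of it. Classes at 0 allow more where counts were few, such as 207 CPM in mouse mast cells at a floor of 3 counts.

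The genes whose levels ran most like the members across the 14 named cell classes of the SD rat were ranked by Pearson's r of log2(CPM + 10) over 9803 genes. For Cdh5 they were Adgrl4 (r = 0.993), Shank3 (0.989) and Podxl (0.981). For Gja4 they were Lrrc32 (0.911), Itga3 (0.893) and Gucy1a1 (0.880), for Gja5 Syt8 (0.995), Avp (0.989) and Tmem63c (0.987), and for Gja1 Meox2 (0.942), Ackr3 (0.919) and Tshz2 (0.916). The classes share 1 library, a gene seen in 1 class alone reaches a high r by that class, and Adgrl4 and Meox2 are among the markers used to name the classes. With no rat entry, Cldn5 was not ranked.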

How the data were processed

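The authors processed both libraries with Cell Ranger 7.1.0, per the labels, and deposited raw UMI counts per gene and barcode, not normalized. The chimera library was counted on a combined rat and mouse reference and the SD rat library on the rat genes alone. Barcodes were kept here with at least 500 UMIs, 200 genes and at most 20% mitochondrial UMIs. Scrublet, in scanpy 1.11.5 with an expected rate of 8%, marked 381 of 12185 chimera (3.13%) and 164 of 8980 SD rat barcodes (1.83%), which were removed. Each population was clustered on its own genes (2000 variable genes, 30 components, 15 neighbors, Leiden resolution 1), and endothelial cells were clustered again, each time without the members and the wider list.

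Clusters were named from marker lists that hold no member, and of the wider list they hold Ptprb. Some endothelial clusters received no arterial, venous, lymphatic or cycling name. Such a cluster was set aside when another cell type had at least 3 raised markers and more summed CPM than the capillary markers. At least 1 marker of that type also had to be among its 10 leading genes. It stayed unnamed when fewer than 3 capillary markers were raised over non-endothelial cells, or when another type led its 10 leading genes against those cells. Low depth left it unnamed only where no capillary marker was among those genes. All other such clusters were called capillary. This naming rule was set after the subclusters and their member levels had been seen. The members and lists were chosen with earlier results of these data known. All 10 members were named in every comparison, and of the wider list the 5 genes with the highest absolute log2 ratio among those past 2-fold. Cldn11 in the chimera rat was named after its values were seen.

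Counts were summed per class and divided by the summed UMIs of the same species. Intervals are exact (Poisson for CPM, Clopper-Pearson for shares, conditional binomial for ratios), and with 1 library per group no test was run. UMIs do not tell a cell with less RNA of a gene from a class with fewer cells that make it. A level of 0 was given a floor of 3 counts over the class. The ratio script was tested on simulated counts. The alternatives are described with their effect in the closing section.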

Additional observations from a re-analysis of the deposited data

Results flagged for a closer look

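Some ratios pointed in opposite directions in the populations, with counting intervals on either side of 0. With 1 library per group these differences were not tested, and no explanation was weighed.

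Gja1 in arterial against capillary cells had a log2 ratio of 0.63 in chimera mouse cells, -0.43 in SD rat cells and -1.52 in chimera rat cells. In venous against capillary cells it was 0.42 in chimera mouse and -0.56 in SD rat cells. Gja4 in venous against capillary cells stood at 1.28 in SD rat, 0.77 in chimera rat and -3.31 in chimera mouse cells, where the mouse value rests on 1 venous UMI, the SD rat value on 1 cell with 16 of 20 UMIs, and the chimera rat value in part on 1 cell with 13 of 32. Jam2 in venous against capillary cells was 0.43 in chimera mouse and -0.24 in SD rat cells. Esam in the same comparison was 0.17 in chimera rat and -0.26 in chimera mouse cells, and the lower end of the chimera rat interval was within 0.01 of 0.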

How the results depend on the processing

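Of 26 member ratios past 2-fold, 15 stayed past it in each of the alternatives that gave a value, out of 16 tried, and 11 did not in 1 or more. Not every alternative could change every ratio. The species limits and the counting of cycling clusters left the SD rat classes as they were. Dropping the minimum counts cannot undo a ratio already past 2-fold. The 15 include Gja4 (SD rat and mouse) and Gja5 (mouse) in arterial cells, Cdh5, Esam and Jam2 in lymphatic cells of both rats and Cdh5 in SD rat venous cells. The causes of the moves below were not tested. The 3 alternatives chosen after seeing the data were set-aside and unnamed clusters counted as capillary, shared barcodes left out, and the leading cell left out. The last left out the UMIs of the cell with the most UMIs of the gene in both classes of a ratio.

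Counts of members past 2-fold moved by over 1.5 times as follows. At species limits of 90% and 10%, where 30 capillary, 12 venous and 10 lymphatic chimera rat cells remained and no arterial class formed, venous counts were 1 in the chimera rat and 0 in the mouse, and chimera rat against SD rat gave 7 in all (2 capillary, 2 venous, 3 lymphatic) in place of 3. With predicted doublets kept, arterial counts were 2 in the SD rat and 0 in the chimera rat. At subcluster resolution 0.5 no arterial class formed in the SD rat, the venous SD rat count was 1, and chimera rat against SD rat gave 2 in all, 1 of them capillary. The lymphatic count of the chimera rat was 3 with 15 components and 3 with junction genes allowed in clustering. With no minimum count, 2 were past 2-fold in SD rat arterial cells and 1 in lymphatic cells between the rats. The arterial SD rat count was also 2 with set-aside clusters as capillary and without the leading cell, and the venous SD rat count was 1 without the leading cell and with a pseudocount of 10 CPM. The venous mouse count was 1 in 6 settings (1000 UMIs, doublets kept, 15 components, cycling cells counted, pseudocount, unnamed clusters as capillary), in each of which Cdh5, at -0.92 to -0.999, was the gene lost.

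The direction of 2 ratios turned: Gja4 in SD rat lymphatic cells (-0.38 at resolution 0.5) and in SD rat venous cells (-0.88 without the leading cell of each class, below the filter). Tjp1 in chimera rat lymphatic cells lost 2-fold in 4 settings (-0.80 to -0.95). With doublets kept, chimera rat arterial ratios went to 0.59 for Gja4, -0.03 for Cdh5 and -0.38 for Gja1. Scaling without mitochondrial and 18S counts moved nothing, and pooled subclustering of the rats formed no arterial class. Thinned to 1000 UMIs, shares of cells exceeded the capillary share in 24 of 68 gene and class pairs, against 40 unthinned. No paired analysis was possible because each group has 1 sample.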
